A study of Mus musculus with 18 samples.

Results

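The comparison asked whether 41BB+ and 41BB- CD8+ T cells changed their transcripts to the same degree in the first 24 h of stimulation. 41BB (CD137, encoded by Tnfrsf9) belongs to the TNF receptor superfamily, and T cells put it on their surface after antigen contact, where it delivers a costimulatory signal. The cells came from spleens and lymph nodes of wild-type C57BL/6J mice, and were sorted on surface 41BB into a positive population (called Tpam by the submitters) and a negative, conventional one. RNA was taken from unstimulated cells straight after the sort (0 h) or after 24 h of culture with Dynabeads carrying antibodies to CD3 and CD28. Each of the 4 groups had 3 libraries, described as biological triplicates, so 12 of the 18 libraries of the series entered the comparison. The other 6 libraries, taken at 72 h, helped set the spread, the scaling between libraries and the choice of genes tested, and were not themselves compared. The sources used here give neither the age of the mice nor how many animals stood behind a library, so p-values measure the spread between these samples only.

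In each population the response is the log2 fold change from 0 h to 24 h. The response difference is the response of 41BB+ cells minus that of 41BB- cells. It was tested in every gene with enough counts, 13150 of 55487. A negative difference means a smaller rise or a larger fall in 41BB+ cells, and a positive one a larger rise or a smaller fall. The same number is also the 41BB+ to 41BB- difference at 24 h minus that at 0 h.

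Naive CD8+ T cells are small and make few ribosomes. Signals from the T cell receptor and CD28 induce the transcription factors MYC and IRF4, and over the first day the cells enlarge, build ribosomes, take up amino acids, synthesise nucleotides and enter the cell cycle. Genes of quiescence, lymph node homing and interferon sensing are turned down in the same period.

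Total counts of the 12 libraries ran from 3085241 to 4229487, with 16503 to 22816 genes detected. Levels are CPM (a library's counts scaled to a total of 1000000), given as mean ± SD of 3 libraries. The share of mitochondrial transcripts at 0 h was 9.73% ± 1.45 for 41BB- and 8.73% ± 0.0299 for 41BB+ cells, and at 24 h it was 6.54% ± 0.334 and 6.52% ± 0.325. That of the nuclear RNA Malat1 was 0.736% ± 0.107 and 0.371% ± 0.0336 before stimulation and 0.22% ± 0.0461 and 0.137% ± 0.0115 after it, and the part of either in the results was not tested. Of 10 marker lists of other cells, 4 genes passed the test, Ighm and Cebpb upward (Cebpb lost the call in 8 alternatives) and the regulatory T cell list's Ctla4 upward and Il2ra downward, the last 2 being genes that CD8+ T cells also induce. Library 2 of the 41BB+ cells at 24 h stood apart in myeloid markers, with 11 of 15 detected and a summed level of 102 CPM, against 4.15 to 23.7 CPM in the other 11 libraries. It also had the highest sums of its group for NK cell markers (23.9 CPM against 6.24 and 1.28) and B cell markers (281 CPM against 196 and 166). At 0 h the sums of several lists differed between the populations without overlap: B cell markers were at 271 to 300 CPM in 41BB- and 149 to 209 CPM in 41BB+ libraries, stromal and endothelial markers at 215 to 263 and 108 to 141 CPM, and CD4 helper markers at 274 to 301 and 173 to 216 CPM. At 24 h these lists were at 144 to 193 and 166 to 281 CPM, 36.4 to 44 and 16.1 to 35.8 CPM, and 139 to 168 and 84.4 to 127 CPM. Other lists were higher in 41BB+ libraries at 0 h, also without overlap. Regulatory T cell markers were at 68.2 to 130 CPM in 41BB- and 197 to 234 CPM in 41BB+ libraries. Plasma cell markers were at 15.7 to 31.4 and 33.1 to 34.6 CPM. At 24 h they were at 915 to 955 and 1050 to 1090 CPM, and at 32.9 to 36.6 and 31.5 to 49.3 CPM. The part of any of these in the results was not tested. Without library 2 of 41BB+ cells at 24 h 944 genes were higher and 1636 lower, against 1187 and 1839 with it. In bulk RNA, fewer cells of a type and less RNA per cell cannot be told apart.

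Tnfrsf9 (chromosome 4, 150914562 to 150946102 on GRCm38), whose protein defined the sort, was at 4.96, 6.81 and 8.45 CPM in 41BB- cells at 0 h and at 172, 184 and 194 CPM at 24 h. In 41BB+ cells it was at 373, 421 and 374 CPM at 0 h and at 137, 129 and 149 CPM at 24 h. It rose in the negative cells and fell in the positive ones, with no overlap between times in either population. The response difference was -6.12 (95% interval -6.84 to -5.40, adjusted p = 2.86e-11, edgeR quasi-likelihood test with Benjamini-Hochberg adjustment, as for every adjusted p here), and the populations did not differ past the threshold at 24 h (log2 -0.29, adjusted p = 0.621). Since the sort fixed the starting gap, this value is a check of the labels. Cd8a, a chain of the CD8 coreceptor, was at 593 to 699 CPM in 41BB- and 462 to 580 CPM in 41BB+ cells at 0 h and at 498 to 512 and 336 to 396 CPM at 24 h, so the CD8 label was borne out in all 12 libraries. Its response difference was within -0.37 to 0.32 (95% interval). Cd8b1, the other chain, fell from 878 ± 98.4 to 320 ± 7.45 CPM in 41BB- and from 399 ± 33.7 to 227 ± 5.40 CPM in 41BB+ cells, a response difference of 0.77 (SE 0.20, adjusted p = 0.00496).

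Across all genes, the response of 3026 differed between the populations at an adjusted p under 0.05, which is 23% of the genes tested. It was lower in 41BB+ cells for 1839 genes (14%) and higher for 1187 (9.03%). A difference of at least 2-fold was seen in 1871 of these genes (14.2% of those tested), and one of at least 4-fold in 300 of the lower and 135 of the higher genes. The 41BB- cells changed more genes in all: 7445 (56.6%) passed the test from 0 h to 24 h, 3814 upward (29%) and 3631 downward (27.6%). In 41BB+ cells 4545 genes passed (34.6%), 2378 upward (18.1%) and 2167 downward (16.5%). The median absolute log2 response over all genes was 0.867 in 41BB- and 0.495 in 41BB+ cells, and the median response difference was -0.0477.

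Most of the differing genes moved the same way in both populations, or passed the test in 41BB- cells alone. Of the 1839 genes with a lower response in 41BB+ cells, 749 rose in both, with a median log2 response of 1.99 in 41BB- and 0.723 in 41BB+ cells. Another 920 rose in 41BB- cells and did not pass in 41BB+ cells (medians 1.36 and 0.115), 88 fell in 41BB+ cells only, and 39 rose in the negative and fell in the positive cells. Of the 1187 with a higher response, 586 fell in 41BB- cells and did not pass in 41BB+ cells (medians -1.11 and -0.0277), and 337 fell in both (medians -1.82 and -0.803). Another 121 rose in 41BB+ cells only, 67 fell in the negative and rose in the positive cells, and 53 rose in both, more in the positive cells (medians 1.4 and 2.86). These classes describe the genes called and are no further test, since the response difference is made of the same libraries.

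**Figure D1:**
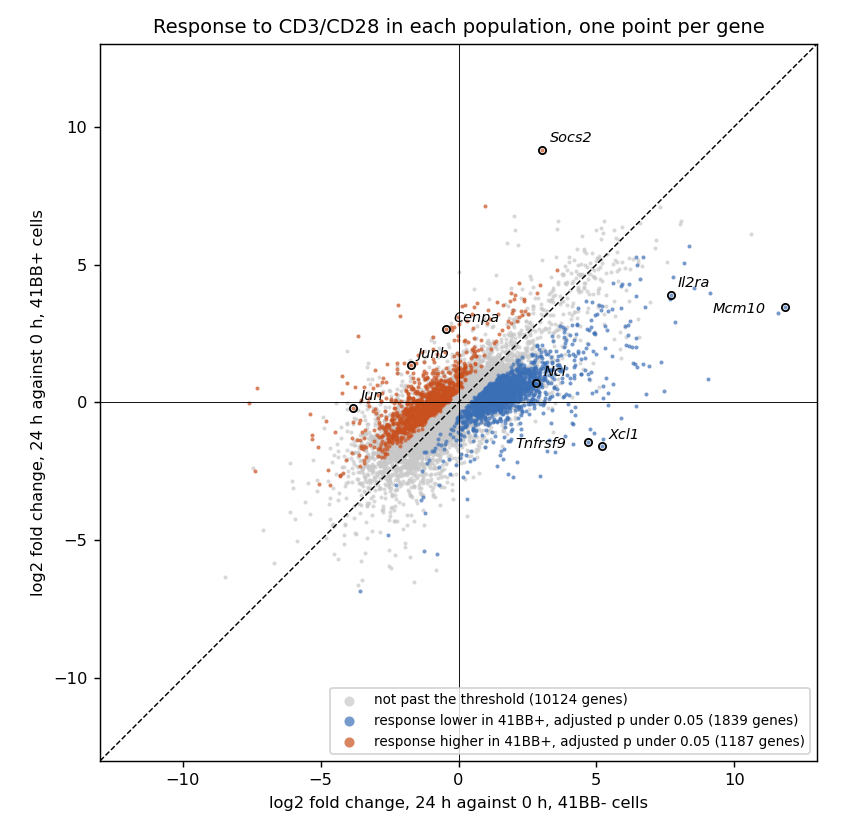
Log2 fold change from 0 h to 24 h in 41BB- cells (x axis) and 41BB+ cells (y axis), 1 point for each of 13150 genes, with the dashed line marking equal responses. The 1839 genes with a lower response in 41BB+ cells (blue) lie below the line, most of them right of 0, and the 1187 with a higher response (orange) lie above it, most of them left of 0.

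The populations stood further apart before stimulation than after it. At 0 h 5192 genes differed between them (39.5%), 2916 higher in 41BB+ cells (22.2%) and 2276 lower (17.3%), and the median absolute log2 difference was 0.554. At 24 h 361 genes differed (2.75%), 220 higher in 41BB+ cells (1.67%) and 141 lower (1.07%), and the median absolute difference was 0.217. With the experiment number as a block within each time, the 141 became 247. The 24 h counts were sensitive to single libraries: the 220 fell to 111 without library 3 and 118 without library 2 of 41BB- cells, and to 125 and 135 without libraries 2 and 1 of 41BB+ cells, all at 24 h. The 141 fell to 78 and 72 without libraries 1 and 2 of 41BB- cells and to 57 without library 3 of 41BB+ cells at 24 h. Of the 361 genes, 211 had differed the same way at 0 h, 30 the opposite way, and 120 had not passed at 0 h. For the 1839 genes with a lower response, the median 41BB+ to 41BB- log2 difference was 1.28 at 0 h and 0.0582 at 24 h. For the 1187 with a higher response it was -0.998 and 0.0764. Both sets were selected on the change of this difference between the times, so the direction of the shift is built in and is no further test. At 24 h, 32 of the 1839 were higher and 17 lower in 41BB+ cells past the threshold, and 59 of the 1187 were higher and 30 lower.

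**Figure D2:**
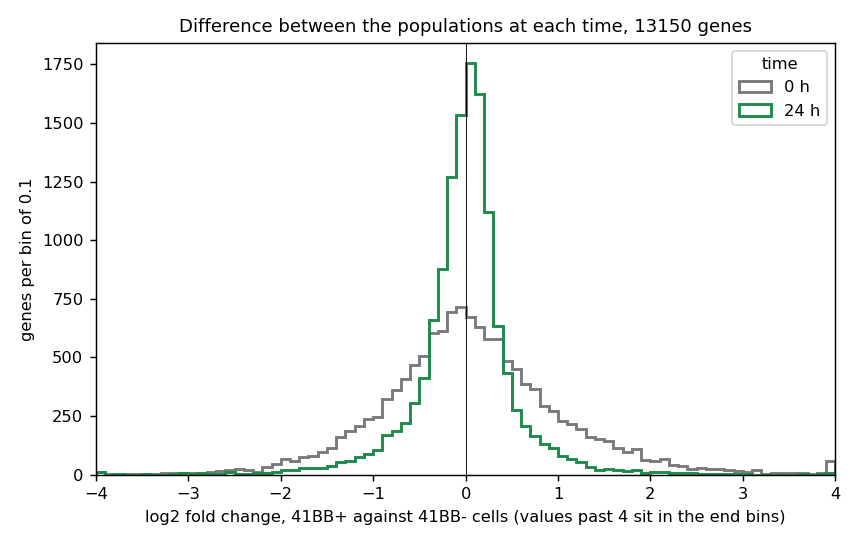
Number of genes (y axis) by log2 fold change of 41BB+ against 41BB- cells (x axis, bins of 0.1) at 0 h and at 24 h, for 13150 genes. The 24 h curve is narrower, with a median absolute difference of 0.217 against 0.554 at 0 h.

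Because the test compares folds, its sign can differ from that of the change in CPM. The change in mean CPM had the other sign in 53 of the 3026 genes (1.75%), 50 of them with a lower log2 response in 41BB+ cells. Il2ra (chromosome 2, 11642807 to 11693193), the high-affinity chain of the interleukin-2 receptor, was of this kind. It was at 2.79, 4.21 and 3.02 CPM in 41BB- cells at 0 h and 697, 760 and 747 CPM at 24 h, and at 72.8, 51.8 and 44.7 CPM in 41BB+ cells at 0 h and 817, 815 and 809 CPM at 24 h. The fold was smaller in 41BB+ cells (response difference -3.79, SE 0.47, adjusted p = 3.21e-06), while their 3 libraries at 24 h all lay above those of 41BB- cells without passing the test there (log2 0.26, adjusted p = 0.706).

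The 37 lists of T cell and metabolic genes together held 347 of the 1839 lower and 107 of the 1187 higher genes, so they cover part of the response only. Each list count below is to be set beside the shares over all genes, 14% lower and 9.03% higher. In ribosome biogenesis, 41 of 42 tested members were lower in response and 0 higher, against 14% and 9.03% of all genes, with a median difference of -1.65. All 42 rose in 41BB- cells (median log2 1.97), while 16 rose and 1 fell in 41BB+ cells (median 0.313). Of all genes 29% rose in 41BB- cells, and 18.1% rose and 16.5% fell in 41BB+ cells. All 42 were already higher in 41BB+ cells at 0 h, and 0 differed at 24 h at this threshold. Their summed level was 4210 to 4280 CPM in 41BB- and 14400 to 15600 CPM in 41BB+ libraries at 0 h, and 19800 to 20100 and 20000 to 21000 CPM at 24 h. The remaining member, Taf1d, a subunit of the RNA polymerase I factor SL1, had a difference of -0.90 (adjusted p = 0.0571).

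Ncl (chromosome 1, 86344719 to 86359400) encodes nucleolin, a nucleolar protein of ribosomal RNA processing. It was at 854, 827 and 818 CPM in 41BB- cells at 0 h and 6198, 6384 and 6075 CPM at 24 h. In 41BB+ cells it was at 4389, 4339 and 4130 CPM at 0 h and 6640, 6731 and 6855 CPM at 24 h. Both rises were free of overlap, and the response difference was -2.12 (95% interval -2.35 to -1.88, adjusted p = 8.9e-13). Npm1, the nucleolar chaperone nucleophosmin, rose from 480 ± 29.4 to 2787 ± 106 CPM in 41BB- and from 1843 ± 190 to 2727 ± 206 CPM in 41BB+ cells (difference -1.84, SE 0.14, adjusted p = 2.68e-10). Ddx21, a nucleolar RNA helicase, rose by 1.99 and by 0.34 on the log2 scale (difference -1.65, SE 0.15, adjusted p = 4.97e-09).

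Several ribosome biogenesis genes hold the hexamer CACGTG, the core of the E-box that MYC and other helix-loop-helix factors can bind, close to their transcription start. It was searched in windows of 250 bases before to 50 bases after each start from RefSeq (GRCm38.p6). The motif reads the same on both strands. Windows were found for 8955 of 11098 protein-coding genes tested (80.7%), and 11.8% of those genes had the motif. Among ribosome biogenesis genes it was in 7 of the 37 with a window (18.9%), and among the genes with a lower response in 215 of 1329 (16.2%). Among S phase genes it was in 6 of 34 (17.6%), among polyamine genes in 2 of 16 (12.5%), among naive state genes in 2 of 30 (6.67%) and among proteasome genes in 1 of 25 (4%). Genes with a higher response had it in 98 of 911 (10.8%), with windows found for 79.9% of that set. The stretches below show where it lies in 5 of those 7 genes and in Eif5a, read on the strand of the gene with the motif in capitals. The position follows the name.
Nop2 (chr6:125131811-125131840, before the start): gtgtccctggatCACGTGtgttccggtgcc
Pes1 (chr11:3963965-3963994, just after the start): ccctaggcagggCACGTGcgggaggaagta
Utp4 (chr8:106893643-106893672, after the start): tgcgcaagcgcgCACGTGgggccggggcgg
Wdr43 (chr17:71616220-71616249, after the start): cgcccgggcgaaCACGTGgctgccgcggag
Ltv1 (chr10:13193092-13193121, after the start): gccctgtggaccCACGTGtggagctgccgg
Eif5a (chr11:69921443-69921472, before 2 of its starts): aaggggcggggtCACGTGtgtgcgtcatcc
A match describes these letters only. Binding was not measured in these libraries.

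Myc itself (chromosome 15, 61985391 to 61990374), the growth regulator, was at 107, 96.3 and 97.4 CPM in 41BB- cells at 0 h and 351, 388 and 372 CPM at 24 h. In 41BB+ cells it was at 308, 304 and 266 CPM at 0 h and 305, 328 and 316 CPM at 24 h. It rose in the negative cells, and the 41BB+ values at the 2 times overlapped, with a log2 response of 0.17 (adjusted p = 0.28). The response difference was -1.64 (95% interval -1.98 to -1.30, adjusted p = 2.51e-08). None of the 11 other tested members of the MYC, MAX and MXD list passed. Among the alternatives Tfap4 passed with limma voom weights (-0.76, adjusted p = 0.0178) and with the 12 libraries alone (-0.659, adjusted p = 0.0427). Mycn, with few counts, passed without library 1 of 41BB+ cells at 0 h (7.74, adjusted p = 0.0382).

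Translation and protein quality control followed the same pattern. Of 37 translation factors 26 were lower in response and 0 higher (median -0.98), with Eif4a1, the RNA helicase of cap-dependent initiation, at -1.35 (SE 0.15, adjusted p = 1.28e-07). Of 30 tRNA synthetases and ATF4 targets 19 were lower and 1 higher (median -0.999), led by the lysyl-tRNA synthetase Kars at -1.71 (SE 0.16, adjusted p = 1.11e-08). All 19 were synthetases. Atf4 itself and Asns, Atf3, Atf5, Ddit3, Sesn2, Trib3 and Vegfa did not pass, and the 1 higher gene was Ddit4. Heat shock proteins and chaperonins counted 21 lower and 1 higher of 28 (median -1.46). Hspd1, the mitochondrial chaperonin HSP60, was at 73.7, 81.4 and 95.3 CPM in 41BB- cells at 0 h and 1147, 1172 and 1194 CPM at 24 h, and at 622, 561 and 528 CPM in 41BB+ cells at 0 h and 1266, 1252 and 1270 CPM at 24 h. Both populations rose without overlap, from starts that lay far apart (response difference -2.53, 95% interval -2.85 to -2.22, adjusted p = 3.6e-12). Proteasome subunits counted 29 lower and 0 higher of 31 (median -1.10), Psmb4 and Psmb1 being the members that did not pass. Genes of the cytosolic ribosomal proteins did not share the pattern: 3 of 56 were lower (6 without library 2 of 41BB- cells at 24 h, 8 with the block within time), 0 higher, and the median was -0.0911, although multiple near-identical gene copies make their counts uncertain.

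In intermediary metabolism the share of members lower in response ran from 23 of 31 downward. Serine, folate and nucleotide synthesis had those 23, with 0 higher and a median of -1.18. Cad (chromosome 5, 31054780 to 31078479), which starts pyrimidine synthesis, was at 77.5, 79.7 and 66.4 CPM in 41BB- cells at 0 h and 487, 465 and 413 CPM at 24 h, and in 41BB+ cells at 343, 345 and 335 and then 465, 504 and 486 CPM. The groups at 24 h overlapped and those at 0 h did not (response difference -1.97, SE 0.17, adjusted p = 1.2e-09). Pfas of purine synthesis and Mthfd1 of the folate cycle had differences of -2.31 (SE 0.19, adjusted p = 1.2e-09) and -2.03 (SE 0.18, adjusted p = 4.16e-09).

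Nuclear genes of oxidative phosphorylation had 32 of 48 lower and 0 higher (median -0.886). They rose in 41BB- cells (41 of 48, median log2 0.878), whereas in 41BB+ cells 5 rose and 6 fell (median 0.06). Of all genes 29% rose in 41BB- cells, and 18.1% rose and 16.5% fell in 41BB+ cells. Cox7b, a subunit of cytochrome c oxidase, rose in the negative cells by 1.07 and fell by 0.40 in the positive ones (difference -1.47, SE 0.19, adjusted p = 1.68e-06). Genes encoded in the mitochondrial genome gave another result, 1 of 13 lower and 0 higher (median -0.148). Glycolysis and the pentose phosphate pathway counted 14 lower and 2 higher of 29 (median -0.767), and the 2 became 4 without the filter on low counts, with the 12 libraries alone or with the block within time. Tkt, the transketolase of the pentose phosphate pathway, went from 103 ± 5.64 to 355 ± 14.1 CPM in 41BB- cells, and from 401 ± 6.96 to 372 ± 3.95 CPM in 41BB+ cells, where the log2 response was -0.06 (adjusted p = 0.683). Its response difference was -1.77 (SE 0.14, adjusted p = 5.42e-10). Ldha, lactate dehydrogenase A, rose in both populations (difference -1.68, SE 0.17, adjusted p = 3.06e-08). Sterol and fatty acid synthesis had 13 lower and 1 higher of 33. The 1 became 3 without library 3 of 41BB- cells at 0 h, and 2 without library 1 of 41BB- cells at 0 h, without library 3 of 41BB+ cells at 24 h or in 5 of the other alternatives. The tricarboxylic acid cycle had 10 lower and 0 higher of 29. Of 18 genes of fatty acid oxidation 3 were higher (5 without library 3 of 41BB+ cells at 0 h or at 24 h) and 0 lower, Hadhb of the trifunctional protein at 1.48 (SE 0.30, adjusted p = 0.000514).

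Polyamines, the theme of the series, are made from ornithine by Odc1 and then by the synthases Srm and Sms, with aminopropyl groups supplied through Amd1, and spermidine modifies the translation factor eIF5A. Among 20 tested genes that make, break down or carry polyamines, 6 were lower in response and 0 higher (median -0.402), against 14% and 9.03% of all genes. The 6 were Srm, Odc1, Amd2, Sms, Mtap and Oaz1. The breakdown genes Smox, Paox and Sat1 and the transport genes Atp13a2, Atp13a3, Slc3a2 and Slc12a8 did not pass. Srm (chromosome 4, 148591503 to 148594993) was at 10.2, 21.4 and 19 CPM in 41BB- cells at 0 h and 230, 228 and 259 CPM at 24 h, and at 135, 176 and 119 CPM in 41BB+ cells at 0 h and 244, 248 and 269 CPM at 24 h. Both rises were free of overlap, and the difference was -2.87 (95% interval -3.68 to -2.06, adjusted p = 2.82e-05). Odc1 rose from 79.1 ± 39.2 to 540 ± 23.2 CPM and from 284 ± 23.3 to 611 ± 13 CPM, in the same order (difference -1.54, SE 0.34, adjusted p = 0.00326), and Sms had a difference of -0.92 (SE 0.22, adjusted p = 0.00255).

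Amd1 rose in both populations by like amounts, 1.14 in 41BB- and 0.95 in 41BB+ cells, and its difference of -0.19 (95% interval -0.74 to 0.36) did not pass. Its close copy Amd2 had -1.51 (SE 0.31, adjusted p = 0.000564). Reads may have been split between these copies, so both values are uncertain. Eif5a (chromosome 11, 69916714 to 69921958) was at 180, 165 and 165 CPM in 41BB- cells at 0 h and 1186, 1028 and 1239 CPM at 24 h. In 41BB+ cells it was at 1055, 1100 and 1057 CPM at 0 h and 1166, 1105 and 1221 CPM at 24 h. The positive cells began in the range that the negative ones reached only after stimulation (response difference -2.51, 95% interval -2.99 to -2.03, adjusted p = 9.49e-08), and their own response was 0.17 (adjusted p = 0.444).

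**Figure D3:**
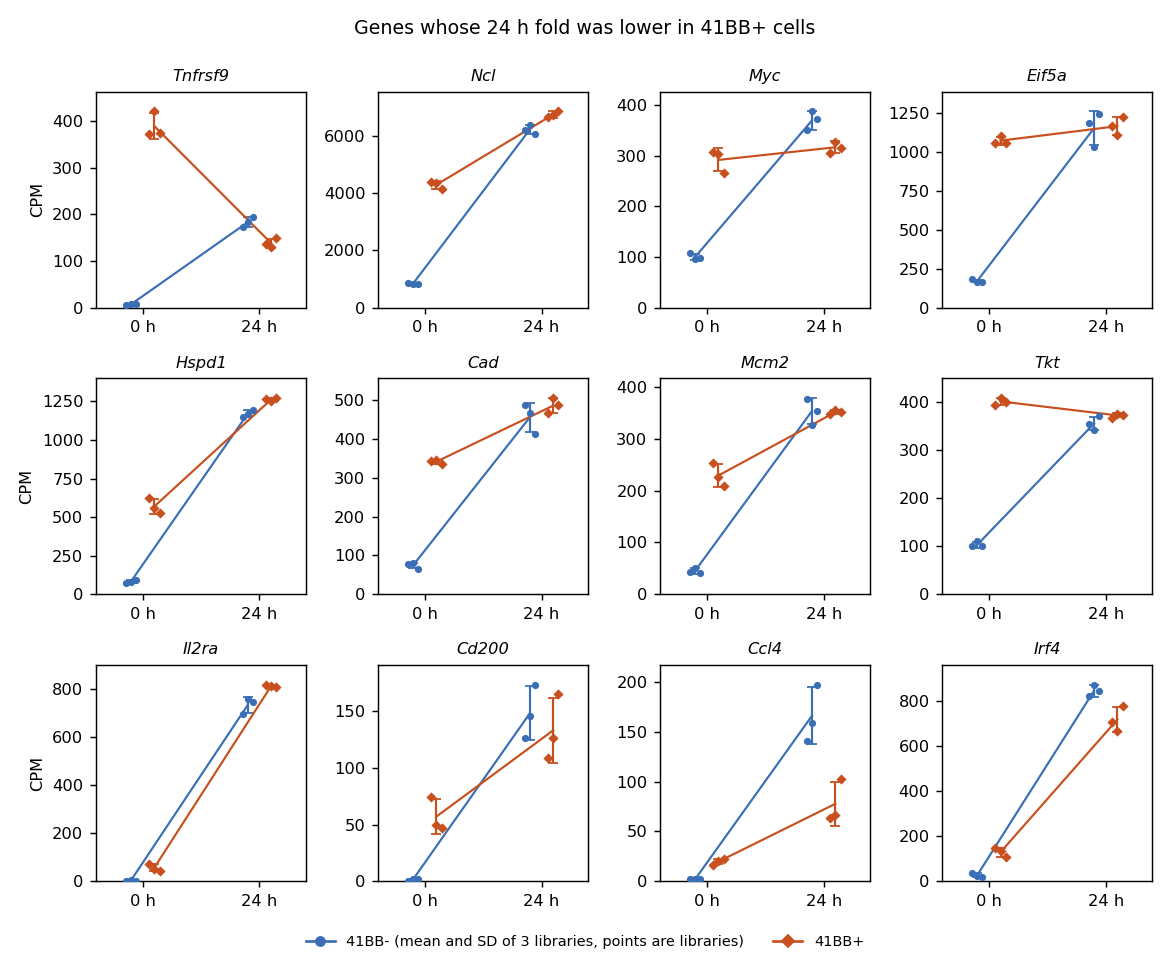
CPM (y axes, from 0) of 12 genes at 0 h and 24 h in 41BB- (blue circles) and 41BB+ cells (orange diamonds), with points for libraries and lines through means with SD bars (n = 3). All 12 started higher in 41BB+ cells and rose in 41BB- cells, and Tnfrsf9 fell in 41BB+ cells from 389 ± 27.5 to 138 ± 9.88 CPM.

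Cell cycle genes split by phase. Of 42 genes of S phase and DNA replication 28 were lower in response and 0 higher (median -1.23), though 41 rose in each population. Mcm10, a replication initiation factor, had 0 counts in all 3 libraries of 41BB- cells at 0 h and was at 143, 137 and 128 CPM at 24 h, at least 436-fold higher against 3 counts over the group. In 41BB+ cells it rose from 15.7 ± 4.01 to 165 ± 6.08 CPM (adjusted p of the difference 8.29e-10). Mcm2, of the replicative helicase, was at 43.4, 51.5 and 41.3 and then 377, 327 and 353 CPM in 41BB- cells, and at 253, 227 and 209 and then 347, 355 and 352 CPM in 41BB+ cells. The starts did not overlap and the ends did (difference -2.21, SE 0.16, adjusted p = 8.74e-11). Uhrf1, which maintains DNA methylation at replication, had a difference of -2.75 (SE 0.22, adjusted p = 2.24e-10).

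The G2 and M phase list rose steeply in both, 36 of 36 in 41BB+ cells (median log2 4.40) and 34 in 41BB- cells (median 4.69), with 9 lower and 5 higher in response (median -0.0803). The 9 lower became 3 with limma voom weights and 5 without library 2 of 41BB- cells at 0 h. At 24 h 28 of the 36 were higher in 41BB+ cells and 0 lower, against 1.67% and 1.07% of all genes, and with any 1 library left out 22 to 31 were. The summed level of the list was 172 to 215 CPM in 41BB- and 235 to 386 CPM in 41BB+ libraries at 0 h, and 2710 to 3260 and 5380 to 5810 CPM at 24 h. Cenpa, the centromeric histone variant, was at 20.8, 20.1 and 16.9 and then 19.1, 16.1 and 9.37 CPM in 41BB- cells, and at 9.13, 5.44 and 9.73 and then 48.2, 55.4 and 44.2 CPM in 41BB+ cells. It rose in the positive cells only past the threshold, and ended without overlap between populations (response difference 3.10, 95% interval 2.42 to 3.77, adjusted p = 3.92e-08). Kif23, a kinesin of the midbody, rose in both and more in 41BB+ cells (difference 1.80, SE 0.26, adjusted p = 5.63e-06). Cdc25b, a phosphatase that activates mitotic CDK1, had a difference of 2.03 (SE 0.31, adjusted p = 1.35e-05).

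Among chemokines 4 of 6 were lower and 0 higher (median -3.51). Ccl4, a chemokine that activated CD8+ T cells secrete, was at 1.86, 2.27 and 1.81 CPM in 41BB- cells at 0 h and 141, 159 and 197 CPM at 24 h. In 41BB+ cells it was at 16.5, 20.6 and 22.1 CPM and then 63.2, 66.8 and 103 CPM. The positive cells began higher and ended lower, with no overlap at either time (response difference -4.27, 95% interval -5.21 to -3.33, adjusted p = 8.56e-09, and at 24 h log2 -0.98, adjusted p = 0.00577). Its neighbour Ccl3 had 0 counts in 41BB- cells at 0 h and reached 113 ± 15 CPM, at least 363-fold higher, while in 41BB+ cells it went from 8.48 ± 0.895 to 78.3 ± 31 CPM (adjusted p of the difference 1.09e-05). Of 17 cytokines 4 were lower and 0 higher (median -1.18), against 14% and 9.03% of all genes. Tnf rose by 3.50 in 41BB- and 1.04 in 41BB+ cells (difference -2.46, SE 0.32, adjusted p = 1.11e-06).

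Coinhibitory receptors and TOX factors counted 5 lower and 2 higher of 19 (median -0.192), against 14% and 9.03% of all genes. Cd200, a ligand of an inhibitory receptor, was at 0.62, 1.94 and 2.11 CPM in 41BB- cells at 0 h and 126, 146 and 173 CPM at 24 h, and at 74.5, 49.2 and 47.3 and then 109, 126 and 165 CPM in 41BB+ cells (difference -5.18, SE 0.49, adjusted p = 4.62e-10). Lag3, an inhibitory receptor for MHC class II, had 3 counts in 41BB- cells at 0 h and 640 at 24 h, a ratio of 189 (exact 95% counting interval 64.3 to 918), and in 41BB+ cells rose from 15.7 ± 4.43 to 41.7 ± 2.25 CPM (difference -5.86, SE 0.78, adjusted p = 1.2e-09). Pdcd1, which encodes PD-1, gave -3.32 (SE 0.46, adjusted p = 7.18e-07). At 0 h all 3 were at 2.27 CPM or less in every 41BB- library and at 12 CPM or more in every 41BB+ library. Ctla4 went the other way, rising by 3.02 in 41BB+ and 1.12 in 41BB- cells (difference 1.89, SE 0.46, adjusted p = 0.00733).

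Early genes of the T cell receptor response divided evenly, 9 higher and 9 lower of 32 (median 0.0803). On the lower side were receptor targets with high starting levels in 41BB+ cells. Irf4, a factor induced in proportion to receptor signal, was at 37.2, 24.6 and 18.1 and then 818, 869 and 841 CPM in 41BB- cells, and at 147, 132 and 107 and then 706, 666 and 777 CPM in 41BB+ cells. It rose without overlap in both (difference -2.38, SE 0.24, adjusted p = 6.95e-08). Spry1, a feedback inhibitor of the RAS pathway, was at 0.62, 1.62 and 0.905 and then 63.5, 63.8 and 77.3 CPM in 41BB- cells, and at 32.4, 38.9 and 32.1 and then 25.8, 16.7 and 25.1 CPM in 41BB+ cells (difference -6.48, SE 0.52, adjusted p = 2.45e-11). It ended higher in the negative cells (log2 -1.48 at 24 h, adjusted p = 0.000304). Fosl1, an AP-1 subunit, was not detected in 41BB- cells at 0 h and was at least 63.1-fold higher at 24 h (adjusted p of the difference 2.07e-06). Outside this list, Rgs16, which dampens G protein signalling, had a difference of -6.50 (SE 0.66, adjusted p = 1.34e-10).

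The 9 members of the early gene list on the higher side were Fos, Maff, Jun, Junb, Dusp1, Dusp5, Ier2, Icos and Cd69, while the AP-1 genes Fosb, Fosl2, Jund, Batf and Batf3 did not pass. Jun, an AP-1 subunit, was at 400, 497 and 214 CPM in 41BB- cells at 0 h and 27.4, 26.5 and 28.4 CPM at 24 h, and at 63, 82.7 and 30.5 and then 47.6, 59.9 and 40.9 CPM in 41BB+ cells. It fell in the negative cells, and the positive ones overlapped between times (difference 3.64, SE 0.48, adjusted p = 6.9e-05). Library 3 of the 41BB- cells at 0 h was the lowest of its group for Jun, Junb, Fos and Maff. Fos passed narrowly (difference 4.12, adjusted p = 0.0488) and lost the call in 9 of the 12 fits that left out a library, with an adjusted p of up to 0.412. Its level at 24 h was 5.11, 5.91 and 1.14 CPM in 41BB- and 1.7, 15.1 and 1.53 CPM in 41BB+ cells, so library 2 of the latter stood apart, and the 0.412 came without it. NF-kB subunits and feedback genes counted 4 higher and 4 lower of 18, with Rel lower at -1.08 (SE 0.18, adjusted p = 5.34e-05) and the feedback ribonuclease Zc3h12a higher at 1.79 (SE 0.33, adjusted p = 0.000191). The 4 lower became 2 without any 1 of libraries 3 of 41BB- cells at 0 h and at 24 h, library 2 of 41BB+ cells at 0 h and libraries 1 and 2 of 41BB+ cells at 24 h.

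Of 34 genes of the naive and quiescent state 21 were higher in response and 2 lower (median 1.11). In 41BB- cells 31 of the 34 fell and 1 rose (median log2 -2.12), and in 41BB+ cells 23 fell and 1 rose (median -0.973). The shares of all genes that fell were 27.6% in 41BB- and 16.5% in 41BB+ cells. Their summed level fell from 14000 to 15000 CPM at 0 h to 4490 to 5140 CPM at 24 h in 41BB- libraries, and from 6790 to 7090 to 3130 to 3860 CPM in 41BB+ libraries. Dgka (chromosome 10, 128720134 to 128744855), a diacylglycerol kinase that restrains receptor signalling, was at 1120, 1047 and 990 and then 200, 202 and 185 CPM in 41BB- cells, and at 325, 311 and 326 and then 109, 127 and 106 CPM in 41BB+ cells. It fell in both without overlap (difference 1.07, 95% interval 0.77 to 1.37, adjusted p = 2.45e-06) and stayed lower in 41BB+ cells at 24 h (log2 -0.66, adjusted p = 0.00038). Treml2, a receptor of the TREM family, fell from 112 ± 5.56 to 21.7 ± 3.97 CPM in 41BB- cells and did not pass in 41BB+ cells (27 ± 3.86 and 28.4 ± 9.77 CPM, difference 2.56, SE 0.29, adjusted p = 1.22e-07). Among other members higher in response were the factors Klf2 (1.79), Lef1 (1.19), Foxo1 (0.84) and Satb1 (0.98), the survival genes Il7r (1.32) and Bcl2 (1.63), and the antiproliferative gene Btg1 (1.42). Id3 (-1.42) and Ms4a4b (-0.73) were the 2 members lower in response.

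Receptors for cytokines and for homing followed with smaller counts. Of 23 cytokine receptor chains 6 were higher and 3 lower (median 0.427). The 6 became 10 or 11 with DESeq2, with the block within time or with the 12 libraries alone, and the 3 became 1 in 6 of the 12 fits without a library (library 2 of 41BB- cells at 0 h, libraries 1 and 2 of 41BB- and 1 and 3 of 41BB+ cells at 24 h, and library 3 of 41BB+ cells at 0 h). Il6ra, the interleukin-6 receptor, was at 209, 181 and 194 and then 71.2, 52.5 and 49.4 CPM in 41BB- cells, and at 34.2, 32.9 and 38.9 and then 34.9, 48.8 and 47 CPM in 41BB+ cells. It fell in the negative cells, and the times overlapped in the positive ones (difference 2.19, SE 0.28, adjusted p = 2.36e-06). Homing receptors and integrins had 6 higher and 2 lower of 27 (median 0.394), and leaving out any 1 library other than library 3 of 41BB- cells at 24 h made the 2 lower 0 or 1. Examples of the higher side were the P-selectin ligand Selplg at 1.71 (SE 0.19, adjusted p = 1.14e-07) and Itgb7, the beta chain of gut-homing integrins, at 1.65 (SE 0.32, adjusted p = 0.000747). The JAK, STAT, SOCS and PIM list had 8 higher and 2 lower of 22, and the 2 became 1 in 6 of the fits without a library (libraries 1 and 2 of 41BB- cells at 0 h, 2 and 3 of 41BB- cells at 24 h, and library 3 of 41BB+ cells at either time). Socs3, a feedback inhibitor of interleukin-6 family signalling, fell from 47.9 ± 8.87 to 6.65 ± 0.333 CPM in 41BB- cells and was at 4.16 ± 1.83 and 4.89 ± 3.40 CPM in 41BB+ cells (difference 3.18, SE 0.65, adjusted p = 0.000721). Pim2, a survival kinase, rose in both, from 45.2, 36.6 and 40.1 to 235, 198 and 229 CPM in 41BB- and from 15.6, 24 and 16 to 231, 235 and 226 CPM in 41BB+ cells (difference 1.32, SE 0.24, adjusted p = 9.96e-05). Socs2 had 0 counts in 41BB+ cells at 0 h and was at least 70.3-fold higher at 24 h, and its difference did not pass without library 2 of 41BB- cells at 0 h (adjusted p = 0.0809).

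Type I interferon response genes fell in both populations, 33 of 36 in 41BB- (median log2 -2.61) and 24 in 41BB+ cells (median -1.57). The shares of all genes that fell were 27.6% and 16.5%. The response was higher in 5 of the 36 and lower in 0, against 9.03% and 14% of all genes, with a median of 0.848 for the list. The 5 became 3 without library 1 of 41BB- cells at 24 h, and 10 or 11 with the block within time, with the 12 libraries alone or without library 3 of 41BB+ cells at 24 h. Irf9, the DNA-binding part of the interferon-activated factor ISGF3, fell from 100 ± 5.20 to 27.2 ± 3.17 and from 42.5 ± 3.21 to 21.4 ± 5.22 CPM (difference 1.01, SE 0.28, adjusted p = 0.00849). MHC class I and peptide loading counted 9 higher and 4 lower of 22, the latter 2 without library 1 of 41BB- cells at 0 h or library 3 of 41BB- cells at 24 h. The class I gene H2-Q4 was at 1.47 (SE 0.19, adjusted p = 1.1e-06) and the endoplasmic reticulum chaperone Calr was at -1.39 (SE 0.14, adjusted p = 2.85e-08). Reads of H2-Q4 may be shared with its near-identical neighbours. The CD8, CD3 and proximal receptor signalling list had 9 higher and 2 lower of 28, with the kinase Prkcq at 1.11 (SE 0.16, adjusted p = 4.27e-06) and the zeta chain Cd247 at 1.01 (SE 0.15, adjusted p = 9.01e-06). Another list, effector and memory transcription factors, had 7 higher and 5 lower of 25, the 7 being 3 to 9 over the alternatives other than a 2-fold minimum. Its member Runx3, a transcription factor of the CD8 lineage, fell in 41BB- and rose in 41BB+ cells, from 263 ± 22.2 to 193 ± 24.7 and from 133 ± 5.29 to 247 ± 13.1 CPM (difference 1.47, SE 0.17, adjusted p = 2.14e-07). The 5 lower were Zeb2 (-2.98), Eomes (-2.23), Bcl6 (-2.17), Ahr (-1.92) and Ikzf3 (-1.01).

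**Figure D4:**
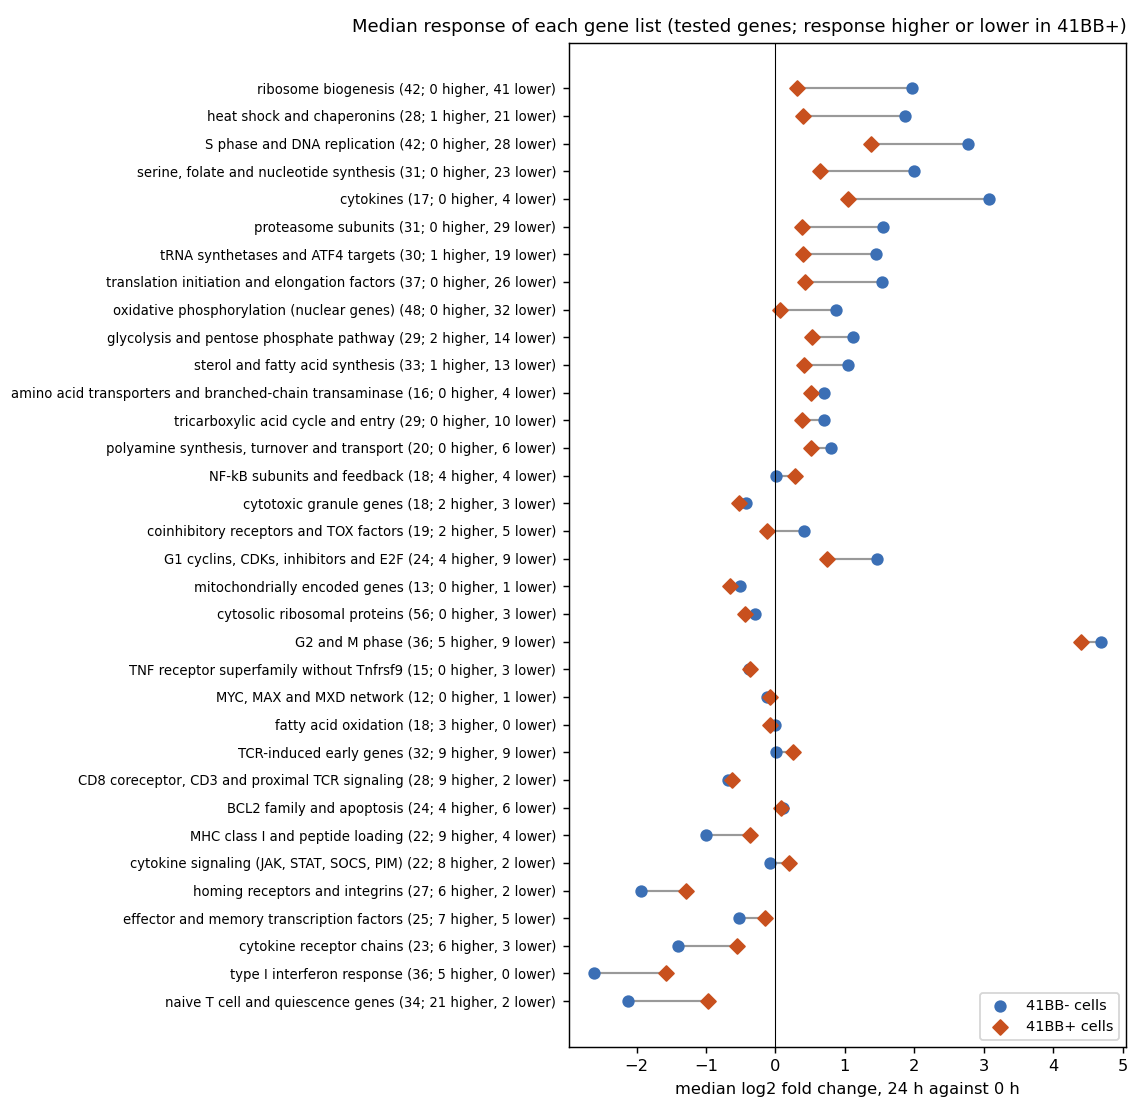
Median log2 fold change from 0 h to 24 h over the tested genes of each list with at least 10 of them, in 41BB- (blue circles) and 41BB+ cells (orange diamonds), with the number tested and the numbers past the threshold for the response difference. From ribosome biogenesis (medians 1.97 and 0.313) at the top to naive T cell genes (-2.12 and -0.973) at the bottom, lists are ordered by the median response difference.

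The 10 genes with the most negative differences (mean of at least 5 CPM in a group) were Mcm10, Ccl3, Fosl1, Spin4, Xcl1, Adgrg1, Rgs16, Spry1, Tnfrsf9 and Utf1. Spin4, of the spindlin family, had 0 counts in 41BB- cells at 0 h and was at least 20.9-fold higher at 24 h, while it was at 3.24, 6.29 and 4.73 and then 3.97, 5.57 and 8.69 CPM in 41BB+ cells (adjusted p of the difference 0.000163). Adgrg1, an adhesion G protein-coupled receptor of cytotoxic lymphocytes, had 1 count and then 63 in 41BB- cells, a ratio of 55.7 with an exact 95% counting interval of 9.65 to 2.24e+03, and was at 5.89, 1.43 and 3.42 and then 1.7, 1.33 and 1.02 CPM in 41BB+ cells (adjusted p = 0.000313). Utf1, a chromatin factor of undifferentiated embryonic cells, rose from 0.62, 0 and 0.603 to 22.3, 11.1 and 9.94 CPM in 41BB- cells and was at 14.1, 12 and 20.5 and then 9.35, 7.69 and 4.09 CPM in 41BB+ cells (difference -6.02, SE 1.11, adjusted p = 1.91e-05).

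The 10 with the most positive differences were Socs2, Irgc1, Ggt1, Klf4, Avil, Fos, Maff, Rhob, L1cam and Jun. Ggt1, which breaks down glutathione, was at 58.3, 40.2 and 49.2 and then 0, 0.473 and 0.284 CPM in 41BB- cells, and at 7.36, 4.86 and 5.52 and then 0.85, 2.12 and 0 CPM in 41BB+ cells (difference 4.89, SE 1.1, adjusted p = 0.000318). It fell in both. Klf4, a factor that restrains T cell proliferation, Rhob, a small GTPase, and the adhesion molecule L1cam fell in 41BB- cells and did not pass in 41BB+ cells, with differences of 4.75 (adjusted p = 0.00903), 3.66 (adjusted p = 0.0111) and 3.65 (adjusted p = 0.0115). All 3 were highest within 41BB+ cells at 24 h in library 2, at 4.51, 6.36 and 5.04 CPM against 0 to 2.55 CPM in the others, and without it none passed (adjusted p = 0.0551, 0.0751 and 0.191). L1cam did not pass with limma voom weights either (adjusted p = 0.174). Irgc1, of the immunity-related GTPases, and Avil, which encodes the actin-binding advillin, passed narrowly at 4.97 (adjusted p = 0.0427) and 4.32 (adjusted p = 0.0356). Each lost the call in 11 alternatives. With the replicate block within time the adjusted p was 0.0502 for Irgc1 and 0.0931 for Avil, and without library 1 of 41BB+ cells at 24 h it was 0.229 and 0.651.

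A smaller group moved in opposite directions. The 39 genes that rose in 41BB- and fell in 41BB+ cells had median log2 responses of 0.961 and -0.76, and the 67 with the reverse had -0.714 and 0.606. Xcl1 (chromosome 1, 164931644 to 164935527), a chemokine that attracts cross-presenting dendritic cells, was at 4.34, 2.27 and 2.11 and then 107, 92.9 and 143 CPM in 41BB- cells, and at 166, 127 and 142 and then 41.4, 39.2 and 57.5 CPM in 41BB+ cells. The times did not overlap within either population, and the ranges of negative cells at 24 h and positive cells at 0 h did (difference -6.80, 95% interval -8.18 to -5.42, adjusted p = 2.77e-07). Itm2a, a membrane protein of activated thymocytes, was at 13.6, 16.5 and 23.5 and then 63.8, 39.2 and 71.3 CPM in 41BB- cells, and at 149, 129 and 153 and then 40, 28.9 and 31.2 CPM in 41BB+ cells (difference -3.67, SE 0.35, adjusted p = 3.78e-08). Txnrd3, a thioredoxin reductase, gave -4.26 (SE 0.54, adjusted p = 1.18e-06).

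In the reverse direction, Junb was at 484, 313 and 194 and then 96.7, 96 and 120 CPM in 41BB- cells, and at 53, 48.3 and 48.7 and then 120, 137 and 115 CPM in 41BB+ cells. The 3 negative libraries at 0 h were widely spread, and all lay above the other groups (difference 3.10, SE 0.38, adjusted p = 1.6e-05). Slco3a1, an organic anion transporter, fell from 292 ± 89.7 to 130 ± 15.2 CPM and rose from 78.3 ± 3.70 to 209 ± 23.7 CPM (difference 2.70, SE 0.27, adjusted p = 3.65e-07). Tent5a, a noncanonical poly(A) polymerase, and Arid5a, an RNA-binding protein that stabilises cytokine transcripts, had 3.44 (SE 0.31, adjusted p = 2.6e-09) and 2.96 (SE 0.38, adjusted p = 1.64e-05).

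**Figure D5:**
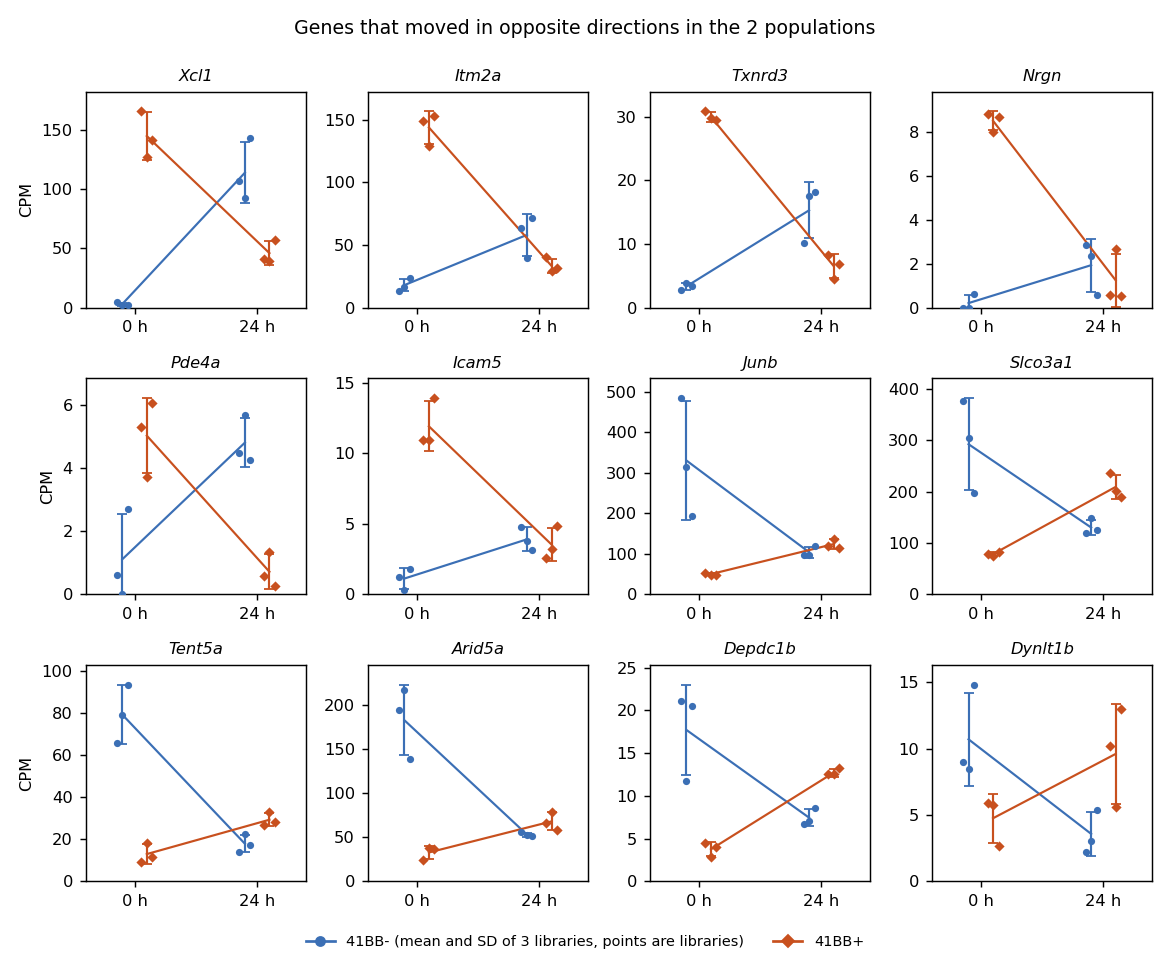
CPM (y axes, from 0) of the 6 genes in each direction with the clearest opposite responses, at 0 h and 24 h in 41BB- (blue circles) and 41BB+ cells (orange diamonds), with points for libraries and lines through means with SD bars (n = 3). Xcl1, for example, went from 2.91 ± 1.24 to 114 ± 26.0 CPM in 41BB- cells and from 145 ± 19.9 to 46 ± 9.99 CPM in 41BB+ cells, so the lines cross.

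A like response in both populations could be bounded for part of the genes. The 95% interval of the difference lay within -1 to 1 (less than 2-fold either way) for 3640 genes (27.7%), of which 3403 did not pass the test. For 6721 genes the test was not passed and the interval reached further, so a difference of 2-fold or more lies within it. Among genes that rose in both with an interval inside those bounds were the histone gene Hist1h2bg, from 9.59 ± 1.56 to 108 ± 21.3 and from 15.3 ± 6.48 to 182 ± 18.2 CPM (difference 0.22, 95% interval -0.45 to 0.89), and Cip2a, an inhibitor of protein phosphatase 2A (0.37, interval -0.25 to 0.98). The mitotic genes Kif20a (0.04, interval -0.91 to 1.00), Knl1 (-0.06, interval -0.84 to 0.71) and Ect2 (-0.13, interval -0.79 to 0.53) were the others with the largest rises. Among those that fell, Ephx1, an epoxide hydrolase, went from 75.3, 73.9 and 58.2 to 9.89, 9.69 and 9.66 CPM in 41BB- and from 70.4, 65.2 and 80 to 7.65, 8.48 and 7.16 CPM in 41BB+ cells (difference -0.26, interval -0.99 to 0.48). Ms4a4c, a surface protein of the MS4A family, fell from 80.7 ± 4.57 to 11.7 ± 1.90 and from 101 ± 7.85 to 11.3 ± 2.49 CPM (-0.25, interval -0.86 to 0.35). Nod1, a sensor of bacterial peptides, Pdcd4, an inhibitor of translation initiation, and Ms4a6b had 0.14 (interval -0.67 to 0.96), -0.47 (interval -1 to 0.07) and -0.29 (interval -0.87 to 0.29). With the replicate block within time Pdcd4 passed (-0.487, adjusted p = 0.0298).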

How the data were processed

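The deposited table holds raw read counts per gene, 1 column per library. The library kit, per the labels, was the SMARTer Stranded Total RNA-Seq v2 kit. The submitters' processing notes name FastQC 0.11.9, Trimmomatic 0.38, HISAT2 2.2.1 and featureCounts, and the build GRCm38. No source used here states the strand setting or how reads with several matches were treated, so overlapping and antisense genes and genes with near-identical copies (Amd1 and Amd2, Eif5a, Npm1, Ldha) are uncertain. Symbols and coordinates are from GENCODE M21.

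Genes were kept by filterByExpr (minimum count 10, minimum total 15; 13150 of 55487). With edgeR 4.0.16 (R 4.3.3), TMM factors, robust quasi-likelihood dispersions (common biological coefficient of variation 0.18) and 6 group means were fitted to all 18 libraries. Contrasts were tested with Benjamini-Hochberg adjustment at 0.05, and SEs are from the same fit. Bounds use 3 counts over a group with none, and cover counting error only, as do counting intervals. Python 3.11.15 made the summaries. Lists are described by counts and medians, without a test of the list. Members and lists were chosen with earlier results of these data known. Genes named were those of the sort, up to 10 with the largest differences in each direction (mean of at least 5 CPM), 6 in each direction with opposite responses, 3 per list by adjusted p, 5 in each direction with a bounded like response, and genes of polyamine biology. The text gives those of the list rule only in part, while the alternatives were run on all 176. Other list members given with a value alone were chosen after their values were seen. Chi-square per degree of freedom between replicates was 4.56 to 8.9, which leaves no pair as duplicates.

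The labels give each library an experiment number, which was read as pairing 41BB+ with 41BB- libraries of the same time. Over 10043 genes, deviations from the group means correlated at a median of 0.158 for the 6 pairs sharing time and number. The median was -0.0817 for the 12 pairs sharing only the time, 0.0839 for the 12 sharing only the number and -0.0481 for the 24 sharing neither. The number was thus also tied, more weakly, to libraries of the other time. Y-linked transcripts made up 0%, 0.0174% and 0.0285% of 41BB- libraries 1 to 3 at 0 h. In 41BB+ libraries they made up 0.000177%, 0.0128% and 0.0222%. At 24 h the shares were 0.00759%, 0.0131% and 0.0213% in 41BB- and 0.00604%, 0.0102% and 0.0208% in 41BB+ libraries. The part of sex in the results was not tested. On simulated counts (12821 genes) the test of the response difference found 1.49% of genes with a 1.41-fold change, 28.4% of those with 2-fold and 72.7% of those with 4-fold, and 3 of its 71 calls were unchanged genes (4.23%). There the measured differences were largely taken out, and changes were put into 67, 67 and 66 genes above a minimum mean count. The real data had calls in 23% of genes, where the adjusted threshold is less strict. The simulated shares therefore do not carry over to the real test. Alternatives were DESeq2 1.42.0, limma 3.58.1 voom with quality weights, RLE factors, no filter, the block, the 12 libraries alone, removal of 99 mitochondrial and ribosomal genes, a 2-fold minimum, and each library left out.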

Additional observations from a re-analysis of the deposited data

Results flagged for a closer look

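The difference between the populations was itself tested, and 1187 genes had a higher and 1839 a lower response in 41BB+ cells. Of these, 39 rose in 41BB- and fell in 41BB+ cells and 67 fell in 41BB- and rose in 41BB+ cells, each past the threshold on its own. The 12 named genes of that kind stand out because the 2 populations moved in opposite directions. Xcl1 (log2 difference -6.80), Nrgn (-5.63), Pde4a (-4.68), Txnrd3 (-4.26), Itm2a (-3.67) and Icam5 (-3.36) rose in 41BB- and fell in 41BB+ cells. Tent5a (3.44), Depdc1b (3.14), Junb (3.10), Arid5a (2.96), Dynlt1b (2.73) and Slco3a1 (2.70) did the reverse. Nrgn and Pde4a rest on low counts, with 2 counts of Nrgn over the 41BB- libraries at 0 h. The other genes given above with an adjusted p under 0.05 for the response difference differed by the same test. With 3 libraries per group, no library was removed as an outlier, though each was left out in turn among the alternatives.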

How the results depend on the processing

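The response difference gave 944 to 1430 genes higher and 1590 to 2032 lower in 41BB+ cells over the alternatives other than a 2-fold minimum, against 1187 and 1839. With RLE factors the calls included 100% of the 1187 and 92.2% of the 1839, and the higher share went from 39.2% to 43.7%. A 2-fold minimum left 637 higher genes for the response difference, 1013 rising and 1139 falling in 41BB+ cells, 2343 falling in 41BB- cells, 1612 higher and 1113 lower at 0 h, and 83 higher and 72 lower at 24 h. The population difference at 24 h moved most. With limma voom weights 380 genes were higher, without the filter 218 were lower, and with the replicate block within time 247 were lower. Leaving out 1 library gave 111 to 217 higher and 57 to 147 lower there. Genes whose CPM change had the other sign numbered 31 with limma voom weights, against 53. Of the named genes, the replicate block within time ended the calls of Irgc1 and Avil and made those of Pdcd4, Gimap4, Gimap6 and Ighd, and the block over all times ended those of Irgc1, Tnfrsf1b, Gimap9 and Cebpb.

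Among 176 genes under up to 20 alternatives each, the direction turned only in 14 that had not passed. The Cd8a difference was 0.0256 with DESeq2 and with RLE factors and 0.0222 with the 12 libraries alone, and -0.105 to 0.11 with a library left out. Klrk1 had 0.0696 with DESeq2, 0.0225 with RLE factors, 0.035 with the 12 libraries alone, 0.034 with the block over all times, and -1.03 to 1.01 with a library left out. Csf1r had -1.58 with limma voom weights, -0.359 with the block over all times, -0.193 with the block within time, and -6.1 to 2.07 with a library left out. With limma voom weights Knl1 had 0.0361 and Nod1 -0.00875. With a library left out, the range was -0.391 to 0.0238 for Amd1, -0.343 to 0.286 for Knl1, -0.111 to 0.551 for Nod1, -0.335 to 0.492 for Kif20a, -0.29 to 0.0518 for Ect2, -0.553 to 0.00307 for Ms4a6b, -2.75 to 1.74 for Batf3, -1.62 to 0.215 for Fcgr3, -0.615 to 4.8 for Gzma, -2.03 to 5.3 for Jchain and -4.01 to 0.961 for Sdc1. Of 136 genes called, 14 lost the call somewhere: Tnfrsf1b in 14 alternatives, Fos in 12, Avil, Gimap9 and Irgc1 in 11, Cebpb in 8, Cd27 in 3, Eif5a2, L1cam, Rpl7a and mt-Nd1 in 2, and Klf4, Rhob and Socs2 in 1. The causes were not tested. Depth limits the rest: at 3085241 to 4229487 counts per library, genes of a few CPM have wide intervals.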

Other observations

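Against 14% lower and 9.03% higher over all genes, amino acid transporters and the branched-chain transaminase had 4 of 16 lower and 0 higher. Slc7a5, the large neutral amino acid transporter, rose from 40.2 ± 6.2 to 215 ± 16.4 CPM in 41BB- and from 181 ± 15 to 266 ± 7.61 CPM in 41BB+ cells (difference -1.74, SE 0.22, adjusted p = 7.85e-07). G1 cyclins, their kinases, the inhibitors of these kinases and E2F factors had 9 lower and 4 higher of 24. Ccnd2, cyclin D2, was at 352, 442 and 412 and then 981, 954 and 928 CPM in 41BB- cells, and at 633, 601 and 594 and then 634, 583 and 590 CPM in 41BB+ cells. It rose in the negative cells only past the threshold (difference -1.14, SE 0.17, adjusted p = 7.93e-06) and was lower in 41BB+ cells at 24 h (log2 -0.55, adjusted p = 0.00713). Its partner kinase gene Cdk4 had a difference of -1.37 (SE 0.17, adjusted p = 9.07e-07).

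Apoptosis genes had 6 lower and 4 higher of 24. Bcl2l1, which encodes the survival protein BCL-XL, rose by 3.82 and by 2.57 on the log2 scale in 41BB- and 41BB+ cells (difference -1.25, SE 0.24, adjusted p = 0.000252). Bbc3, which encodes the death-promoting protein PUMA, fell from 16.8 ± 1.03 to 9.79 ± 0.645 CPM in 41BB- and rose from 4.24 ± 1.45 to 8.65 ± 0.128 CPM in 41BB+ cells (difference 1.94, SE 0.40, adjusted p = 0.000443). Cytotoxic granule genes had 3 lower and 2 higher of 18, near the shares over all genes, and the 2 became 1 without library 1 of 41BB- cells at 0 h, library 2 of 41BB- cells at 24 h, library 1 of 41BB+ cells at 0 h or library 2 of 41BB+ cells at 24 h. Ctsc, the protease that activates granzymes, fell in 41BB- and rose in 41BB+ cells (difference 1.1, SE 0.20, adjusted p = 0.000123).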
